A study of Mus musculus with 6 samples.

Results

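The enzymes that write and remove DNA methylation were described in advanced embryonic stem cells (ASCs), an *in vitro* pluripotent state of the mouse, with and without *Bdh2*. The group was set by name and holds 10 genes, namely *Dnmt1*, *Uhrf1*, *Dnmt3a*, *Dnmt3b*, *Dnmt3l*, *Tet1*, *Tet2*, *Tet3*, *Tdg* and *Dppa3*. All 10 were found among the 54715 genes of the count table and all 10 passed the filter on low counts, which left 16758 genes to be tested. RNA of 3 libraries of WT ASCs and 3 libraries of *Bdh2*-knockout ASCs was sequenced. Both groups derive from a cross of a 129/sv female with a GOF/GFP male, so that all cells carry the GFP reporter, and both were grown in N2B27 medium with leukemia inhibitory factor, activin A, BMP4 and CHIR99021. *Bdh2*, a short-chain dehydrogenase gene, was disrupted by CRISPR/Cas9 with a pair of guides near its start codon. Knockout lines were expanded from single colonies, 1 clone with a bi-allelic deletion was taken forward, and a difference between genotypes cannot be told apart from one between clones. The labels do not say whether the 3 libraries of a group come from separate cultures, so the p-values below measure the spread between these libraries, which may be technical.

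DNA methylation in mammals is placed on cytosines that precede a guanine (CpG). DNMT3A and DNMT3B set new marks, helped by DNMT3L, a relative without catalytic activity, and DNMT1 copies them onto the daughter strand after replication, recruited by UHRF1, which reads hemimethylated CpG. The TET enzymes oxidise 5-methylcytosine in steps that need oxoglutarate, iron and vitamin C, TDG excises the most oxidised forms for repair, and DPPA3 (also called STELLA) protects marks in the early embryo and restrains UHRF1. In mouse pluripotent cells the balance of these activities differs between the naive and primed states.

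To show which stretches of the *de novo* genes carry the assays and the transcription starts, the study's RT-qPCR primers and the promoters of the genes with the largest differences are given first. The primer pairs, written 5′ to 3′ in lower case, were placed on GENCODE M21 transcripts of GRCm38.
Dnmt3a forward: gactcgcgtgcaataaccttag
Dnmt3a reverse: ggtcactttccctcactctgg
Dnmt3b forward: ctcgcaaggtgtgggcttttgtaac
Dnmt3b reverse: ctgggcatctgtcatctttgcacc
Dnmt3l forward: cggagcattgaagacatc
Dnmt3l reverse: catcatcatacaggaagagg
The *Dnmt3a* pair lies at chr12:3908802-3908823 (plus strand) and chr12:3908931-3908951 (minus strand), past the stop codon in exon 23 of 23, and both primers match 2 of the 18 annotated *Dnmt3a* transcripts. The *Dnmt3b* pair lies at chr2:153687577-153687601 (plus strand) and chr2:153687666-153687689 (minus strand), past the stop codon in exon 24 of 24, and matches 9 of 12 transcripts. The *Dnmt3l* forward primer joins exons 4 and 5 across an intron (chr10:78050948-78051835, plus strand) and the reverse primer lies in exon 6 (chr10:78052009-78052028, minus strand), both in coding sequence, with a match to 3 of 8 transcripts. With RT-qPCR the study reported *Dnmt3a*, *Dnmt3b* and *Dnmt3l* as decreased in *Bdh2*-knockout ASCs. The counts described here instead sum the reads over all exons of a gene, so that isoforms are not resolved. They did not show this decrease for any of these genes, and the reason for the difference was not tested.

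The promoters below are the RefSeq windows of GRCm38.p6 that reach from 250 bases before to 50 bases after a transcription start, shown for the 3 genes with the highest log2 fold change. Capitals mark the GC box GGGCGG or its reverse complement CCGCCC, a motif bound by SP/KLF factors that was searched on both strands.
Dnmt3l (chr10:78042037-78042336, plus strand): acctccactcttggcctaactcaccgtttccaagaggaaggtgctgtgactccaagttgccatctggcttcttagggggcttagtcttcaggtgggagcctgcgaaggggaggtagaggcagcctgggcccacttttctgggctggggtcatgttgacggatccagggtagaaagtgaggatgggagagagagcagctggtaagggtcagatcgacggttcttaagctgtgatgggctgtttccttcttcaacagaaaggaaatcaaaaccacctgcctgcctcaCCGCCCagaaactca
Dnmt3l (chr10:78049592-78049891, plus strand): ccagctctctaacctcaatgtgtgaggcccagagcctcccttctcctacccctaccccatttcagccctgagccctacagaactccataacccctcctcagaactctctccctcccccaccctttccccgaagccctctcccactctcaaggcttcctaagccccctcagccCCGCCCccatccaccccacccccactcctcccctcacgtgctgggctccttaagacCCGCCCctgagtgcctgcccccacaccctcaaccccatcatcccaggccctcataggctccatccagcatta
Dnmt3b (chr2:153649199-153649498, plus strand): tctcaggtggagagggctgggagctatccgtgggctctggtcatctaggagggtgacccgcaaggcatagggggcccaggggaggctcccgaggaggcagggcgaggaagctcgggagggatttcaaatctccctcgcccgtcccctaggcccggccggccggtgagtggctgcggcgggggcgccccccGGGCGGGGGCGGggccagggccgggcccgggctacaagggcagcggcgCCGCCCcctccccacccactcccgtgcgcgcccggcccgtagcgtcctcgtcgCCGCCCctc
Tet3 (chr6:83441629-83441928, minus strand): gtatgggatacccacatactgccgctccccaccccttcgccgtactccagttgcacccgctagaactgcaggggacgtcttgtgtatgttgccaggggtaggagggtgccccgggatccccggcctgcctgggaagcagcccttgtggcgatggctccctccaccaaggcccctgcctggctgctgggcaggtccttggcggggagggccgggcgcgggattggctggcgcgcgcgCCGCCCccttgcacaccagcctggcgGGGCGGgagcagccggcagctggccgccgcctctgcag
These windows differ in their content of CpG, the dinucleotide the enzymes themselves act on. The *Dnmt3b* window holds 30 CpG and 4 GC boxes, and 11.7% of the 32851 promoters in the RefSeq table hold at least as many CpG. The printed *Dnmt3l* windows hold 6 and 4 CpG, below the median of 7 over all promoters, with 1 and 2 GC boxes, and the 1 other *Dnmt3l* window holds 3 CpG and 0 GC boxes. The *Tet3* window holds 22 CpG and 2 GC boxes. Over the 9 genes with an entry in the table (not *Dppa3*), 12 of 16 windows held a GC box, compared with 35.7% of all promoters. The *Tet2* window had the most CpG of the 16, with 57, and 0.152% of promoters hold at least as many. A match to these letters describes the window and is not evidence of binding.

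The targeted gene was checked first. *Bdh2* (ENSMUSG00000028167) had 203, 193 and 209 counts in the WT libraries and 164, 136 and 129 counts in the knockout libraries, which is 9.43 ± 1.10 against 5.44 ± 0.485 CPM (SD, n = 3). CPM is the count scaled to a common library size with TMM factors. All 3 knockout libraries were below all 3 WT libraries, at 57.7% of the WT mean. The study described the deletions as frameshifts and found BDH2 protein barely detectable in the knockout ASC lines. Counts of the remaining transcript do not measure the protein. Library totals lay between 18927748 and 28333541 counts, so that 3 counts, taken as the floor, correspond to 0.106 to 0.158 CPM. All 9 pluripotency markers were detected and their summed level was similar, at 7154 to 7224 CPM in WT ASCs and 7105.5 to 7293 CPM in *Bdh2*-knockout ASCs. Single markers went opposite ways, with 4 called higher (*Pou5f1*, *Esrrb*, *Klf4* and *Tfcp2l1*) and 1 lower (*Dppa5a*). Over all tested genes 21.0% were called higher and 20.8% lower. The groups did not overlap for 7 of the 9, compared with 52.4% of all tested genes. Of 12 primitive endoderm markers, 12 were called higher in *Bdh2*-knockout ASCs, compared with 21.0% of all tested genes. They summed to 813 to 895 CPM there against 351 to 388 CPM in WT ASCs, and 0 were at 0. Other marker lists also held calls. Of 6 tested mesendoderm markers 4 were higher and 1 lower, of 3 neural markers 2 were higher and 0 lower, and of 5 fibroblast markers 0 were higher and 1 lower. Of 11 adult hepatocyte transcripts, 10 were called lower, compared with 20.8% of all tested genes, with 0 separated between the genotypes. Their sum was 480.3, 291 and 34.6 CPM in WT ASC replicates 1 to 3 and 27.0, 129 and 14.6 CPM in knockout replicates 1 to 3. In bulk RNA, fewer cells of a type and less RNA per cell cannot be told apart, and the part of these transcripts in the results below was not tested beyond the fits named there.

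Of the 10 genes, 5 rose in *Bdh2*-knockout ASCs (*Dnmt3l*, *Dnmt3b*, *Tet3*, *Tet1* and *Tet2*), 0 fell, and 5 did not pass the test (*Dnmt1*, *Uhrf1*, *Tdg*, *Dnmt3a* and *Dppa3*). Genes were called at an adjusted p under 0.05 from edgeR's quasi-likelihood test. The comparison as a whole called 6996 of 16758 genes (41.7%), 21.0% higher and 20.8% lower, so the called share of the group (5 of 10) lies near the background, and the count by itself is not a result about these genes. The groups of libraries did not overlap for 4 of the 10 genes, compared with 52.4% of all tested genes. The median log2 fold change of the 10 was 0.14, compared with -0.013 over all tested genes. By the size of the change, 496 tested genes (2.96%) had a log2 fold change at least as high as that of *Dnmt3l*, and 1103 (6.58%) at least as high as that of *Dnmt3b*. In a stricter test against a fold change of 1.2, which called 14.7% of all genes, 3 of the 10 were higher, namely *Dnmt3l*, *Dnmt3b* and *Tet3*.

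**Figure D1:**
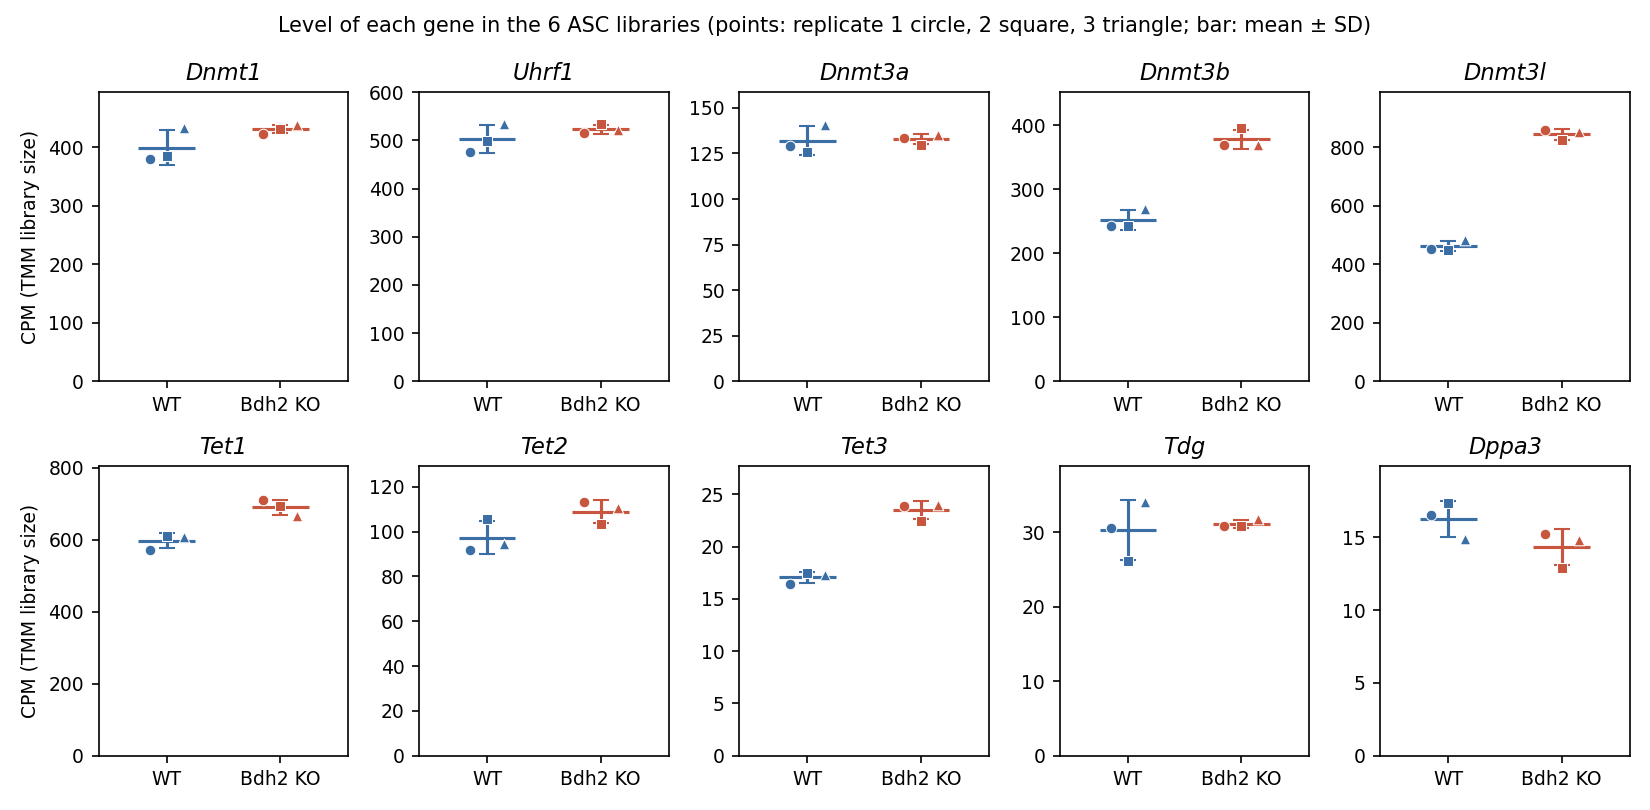
CPM of each of the 10 genes (vertical axis, from 0, with its own range for each gene) in the 3 WT and 3 *Bdh2*-knockout libraries; points are libraries, and the horizontal and vertical bars are the mean and SD. The knockout libraries of *Dnmt3b*, *Dnmt3l*, *Tet1* and *Tet3* lie above all WT libraries, and the libraries of the other 6 genes overlap.

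The *de novo* methyltransferase genes were examined next. *Dnmt3l* (chr10:78041947-78063622, plus strand) had 8794, 9079 and 12181 counts in the WT libraries and 23632, 22466 and 20381 counts in the knockout libraries. On the CPM scale this is 453, 449.8 and 482 in WT ASCs and 858, 824 and 850.5 in *Bdh2*-knockout ASCs. The lowest knockout library was thus far above the highest WT library, and the spread within each genotype was small (CV 3.86% and 2.11%). The log2 fold change was 0.87 (SE 0.047, 95% interval 0.77 to 0.97, adjusted p = 3.84e-08, edgeR quasi-likelihood test with Benjamini-Hochberg adjustment), a 1.83-fold difference. It was the largest difference among the 10 genes.

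*Dnmt3b* (chr2:153649450-153687730, plus strand), the main *de novo* enzyme of the early epiblast, reached 243, 243 and 270.0 CPM in WT ASCs and 369, 396 and 370.2 CPM in *Bdh2*-knockout ASCs. Again all knockout libraries were above all WT libraries. The log2 fold change was 0.59 (SE 0.055, 95% interval 0.47 to 0.70, edgeR adjusted p = 4.43e-06). *Dnmt3a* (chr12:3806007-3914443, plus strand), whose product has the same activity, had 129, 126 and 141 CPM in WT ASCs and 133, 129.6 and 135 CPM in *Bdh2*-knockout ASCs. The 3 knockout values fell inside the WT range. With a log2 fold change of 0.01 (SE 0.054, edgeR adjusted p = 0.913), the interval of the *Dnmt3a* difference, 0.928- to 1.09-fold, held no change as large as that of *Dnmt3b*, whose interval began at 1.38-fold. Whether the *Dnmt3a* and *Dnmt3b* changes differ was not tested as such. *Dnmt3c*, a rodent paralog that shares 11.5% of the 50-base stretches of the longest *Dnmt3b* transcript, was counted at most 8 times in a library.

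The maintenance genes did not pass the test. *Dnmt1* (chr9:20907209-20959888, minus strand) had 380.5, 385 and 434 CPM in WT ASCs and 424, 432 and 438 CPM in *Bdh2*-knockout ASCs. WT replicate 3 lay within the knockout range, whereas the other 2 WT libraries lay below it. The log2 fold change was 0.11 (SE 0.055, 95% interval -0.0092 to 0.23, edgeR adjusted p = 0.127), and without WT ASC replicate 3 it was 0.17 with an adjusted p of 0.00372 from edgeR. *Uhrf1* (chr17:56303321-56323486, plus strand) had 477, 499 and 533 CPM in WT ASCs and 515, 533 and 521 CPM in *Bdh2*-knockout ASCs, with overlapping groups. Its log2 fold change was 0.06 (SE 0.050, 95% interval -0.051 to 0.16, edgeR adjusted p = 0.387). For both genes, and for *Dnmt3a*, *Dnmt3b*, *Dnmt3l* and *Tdg*, WT replicate 3 was the highest WT library; it was also the WT library with the lowest sum of hepatocyte transcripts. The log2 fold change of *Dnmt1* with a hepatocyte score as covariate was 0.04 (edgeR adjusted p = 0.701).

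All 3 TET genes were called higher, compared with 21.0% of all tested genes, and 1 of them (*Tet3*) against a fold change of 1.2. *Tet3* (chr6:83362373-83459084, minus strand), the family member of the oocyte and zygote, had 319, 352 and 437 counts in the WT libraries and 659, 613 and 575 counts in the knockout libraries. In CPM it had 16.4, 17.4 and 17.3 against 23.9, 22.5 and 24.0, so that the genotypes were fully separated. The log2 fold change was 0.46 (SE 0.066, 95% interval 0.32 to 0.60, edgeR adjusted p = 1.43e-04). *Tet1* (chr10:62804570-62908996, minus strand), the main TET enzyme of pluripotent cells, had 572, 609 and 608 CPM in WT ASCs and 709, 693 and 667 CPM in *Bdh2*-knockout ASCs. These groups did not overlap either, yet the difference was smaller, with a log2 fold change of 0.21 (SE 0.047, 95% interval 0.11 to 0.31, edgeR adjusted p = 0.00317). It was not past a fold change of 1.2. *Tet2* (chr3:133463679-133545139, minus strand), the TET enzyme best known from blood cells, had 91.6, 105.7 and 94.5 CPM in WT ASCs and 113, 103 and 110.5 CPM in *Bdh2*-knockout ASCs. Knockout replicate 2 lay below WT replicate 2. Its log2 fold change of 0.16 (SE 0.062, 95% interval 0.030 to 0.30) passed the threshold narrowly (edgeR adjusted p = 0.0490), and the call held in 6 of 15 alternative analyses. It was lost on leaving out WT replicate 1 (edgeR adjusted p = 0.162), WT replicate 3 (0.0887), knockout replicate 1 (0.131) or knockout replicate 3 (0.109), and with the hepatocyte covariate (0.170).

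*Tdg* and *Dppa3* did not pass the test. *Tdg* (chr10:82629828-82650799, plus strand) had 30.6, 26.1 and 34.1 CPM in WT ASCs and 30.9, 30.8 and 31.8 CPM in *Bdh2*-knockout ASCs, with all knockout values inside the WT range (log2 fold change 0.03, SE 0.081, 95% interval -0.14 to 0.21, edgeR adjusted p = 0.755). Its value is uncertain, because 66.3% of the 50-base stretches of the longest *Tdg* transcript occur in transcripts of *Tdg-ps* or *Gm9855*, and how reads with several matches were counted is not stated. *Gm9855*, looked up after the values of *Tdg* were seen, took more reads than *Tdg* itself, with 51.5, 56.0 and 61.2 CPM in WT ASCs and 66.3, 68.8 and 66.7 CPM in *Bdh2*-knockout ASCs. The knockout libraries of *Gm9855* were all above the WT libraries (log2 fold change 0.26, edgeR adjusted p = 0.00503), whereas those of *Tdg* overlapped. *Dppa3* (chr6:122626410-122630272, plus strand) had 16.5, 17.4 and 14.9 CPM in WT ASCs and 15.2, 12.9 and 14.9 CPM in *Bdh2*-knockout ASCs. It was the 1 gene of the 10 with a lower mean (88.1% of WT), with overlapping groups and a log2 fold change of -0.18 (SE 0.089, 95% interval -0.37 to 0.010, edgeR adjusted p = 0.118). The *Dppa3* difference passed the threshold only when library totals were used without TMM, at -0.24 (edgeR adjusted p = 0.0450).

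**Figure D2:**
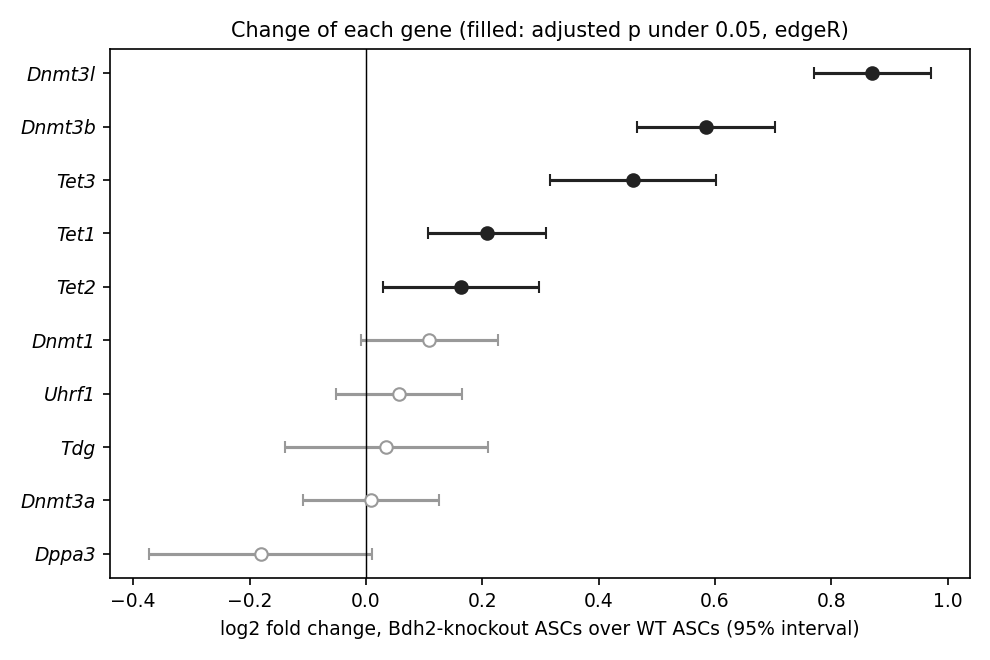
Log2 fold change of each gene in *Bdh2*-knockout ASCs over WT ASCs (horizontal axis) with its 95% interval from edgeR; filled points had an adjusted p under 0.05. The intervals of *Dnmt3l*, *Dnmt3b* and *Tet3* begin at 0.77, 0.47 and 0.32, and that of *Tet2* begins at 0.030.

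Levels were then compared between genes per length, in FPKM, for which each count was divided by the deposited gene length. In WT ASCs the order of mean FPKM was *Dnmt3l* (154.5), *Uhrf1* (118), *Dnmt1* (54.2), *Dnmt3b* (49.4), *Tet1* (38.6), *Dppa3* (18.3), *Dnmt3a* (7.93), *Tet2* (5.77), *Tdg* (5.64) and *Tet3* (1.02). The cofactor gene was therefore the most abundant of the 10 and *Tet3* the least. The ranges of neighbours overlapped for *Dnmt1* with *Dnmt3b* and for *Tet2* with *Tdg*, and were apart for the other 7 pairs of neighbours. In *Bdh2*-knockout ASCs *Dnmt3b* (74.1 FPKM) stood above *Dnmt1* (58.4 FPKM), with ranges that no longer overlapped, and *Dnmt3l* reached 282 FPKM. The order from *Tet1* downwards was the same as in WT ASCs. A listed length sums the exons of all isoforms, which lowers the FPKM of genes such as *Dnmt3a* and *Tet2* with many annotated transcripts.

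**Figure D3:**
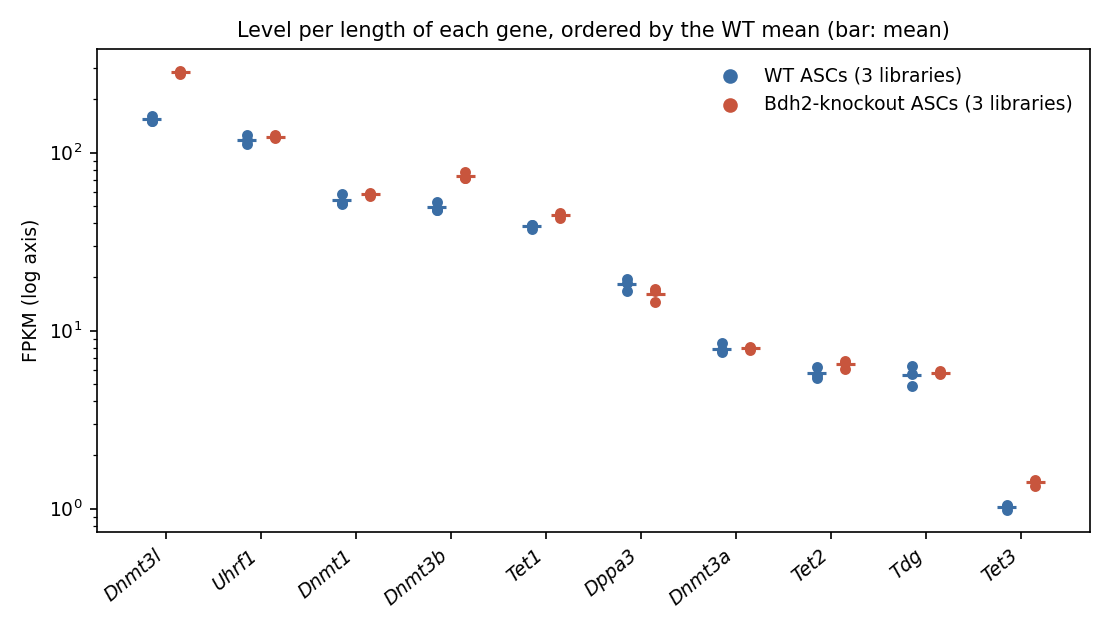
FPKM of the 10 genes (vertical log axis) in each library, ordered by the WT mean; points are libraries and bars are means. WT and knockout points are separated for *Dnmt3l* (154.5 against 282 FPKM) and *Dnmt3b* (49.4 against 74.1 FPKM).

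These RNA levels give the make-up of the transcripts of the methylating and oxidising enzymes, as a description without a test. Protein was not measured in these libraries. By Western blot the study reported lower DNMT1, DNMT3A and DNMT3B and comparable DNMT3L in knockout cells, so the shares below do not describe the proteins. They also depend on the listed gene lengths. The catalytic methyltransferases *Dnmt1*, *Dnmt3a* and *Dnmt3b* summed to 107.0, 107 and 120.1 FPKM in WT ASCs and 138, 144 and 140.0 FPKM in *Bdh2*-knockout ASCs. *Dnmt3b* made up 44.3% ± 0.270 of this sum in WT ASCs and 52.7% ± 1.08 in *Bdh2*-knockout ASCs (SD, n = 3). The share of *Dnmt1* was 48.6% and 41.6%, and that of *Dnmt3a* 7.11% and 5.68%. The FPKM ratio of *Dnmt3b* to *Dnmt3a* was 6.16, 6.28 and 6.25 in WT ASCs and 9.01, 9.95 and 8.92 in *Bdh2*-knockout ASCs, so that it was separated between genotypes in all libraries. *Dnmt3l* exceeded the sum of its catalytic partners *Dnmt3a* and *Dnmt3b* 2.70 ± 0.0591 times in WT ASCs and 3.45 ± 0.187 times in *Bdh2*-knockout ASCs. The TET genes summed to 45.4 ± 1.72 and 52.5 ± 1.45 FPKM, and *Tet1* made up 84.4% to 85.6% of this sum in the WT libraries and 84.4% to 85.7% in the knockout libraries.

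**Figure D4:**
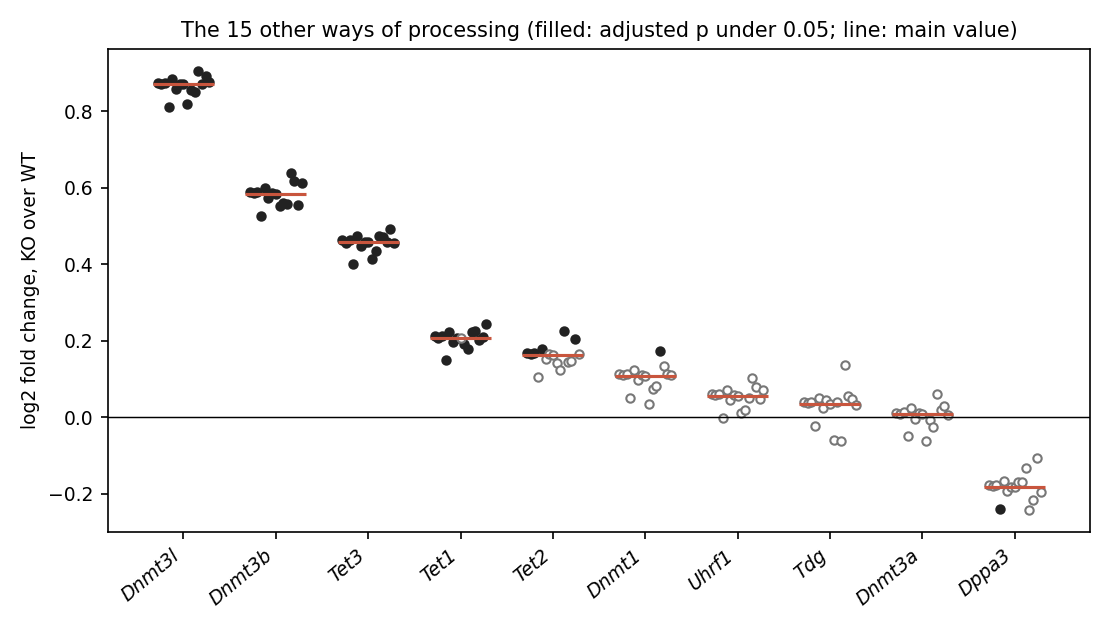
Log2 fold change of each gene (vertical axis) in the 15 alternative analyses; filled points had an adjusted p under 0.05, and the red line is the value reported in the text. *Dnmt3l*, *Dnmt3b* and *Tet3* were called in 15 of 15, *Tet1* in 14, *Tet2* in 6, and *Dnmt1* and *Dppa3* in 1 each.

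*Tet2* lies on the same chromosome as the targeted gene, with 1736082 bases from the end of *Tet2* to the start of *Bdh2*, so the region between them was examined. It lists 30 genes including both ends, of which 4 were tested, and the other 26 had at most 3 counts in a library. *Cxxc4*, which encodes a CXXC protein that binds TET2, had 5, 8 and 7 counts in the WT libraries and 23, 27 and 13 counts in the knockout libraries, with a log2 fold change of 1.35 (SE 0.38, edgeR adjusted p = 0.0127). This gene is at a low level, and without knockout replicate 2 it did not pass (edgeR adjusted p = 0.0685). *Cenpe*, a kinetochore motor gene and the neighbour of *Bdh2*, rose from 119 ± 1.24 to 140.7 ± 1.72 CPM (edgeR adjusted p = 0.00109). Of the 4 tested genes, *Bdh2* was called lower and *Tet2*, *Cxxc4* and *Cenpe* higher, compared with 20.8% and 21.0% of all tested genes. The *Tet2* call held in 6 and the *Cenpe* call in 14 of 15 alternative analyses. With so few tested genes this is a description and not a result about the region.

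The other genes of the pathway were grouped by role into 8 lists with 82 genes, of which 80 could be tested (not *Nnmt* and *Asz1*). In these lists 24 genes rose and 17 fell (51.2% called, compared with 41.7% of all genes), with a median log2 fold change of 0.04. Against a fold change of 1.2, 11 were higher and 6 lower, where 14.7% of all tested genes were called (1185 higher and 1272 lower). The 11 were *Dppa2*, *Trim28*, *Cxxc4*, *Sall4*, *Mat2a*, *Slc23a1*, *Ddx4*, *Mael*, *Slc25a31*, *Taf7l* and *Tex19.1*, and the 6 were *Mbd4*, *Gadd45b*, *Ogt*, *Neil2*, *Gnmt* and *Idh2*. Of 7 partners of maintenance methylation, 1 rose (compared with 21.0% of all tested genes), *Usp7*, which encodes a deubiquitinase that stabilises DNMT1 (517 ± 19.5 to 645 ± 22.9 CPM, edgeR adjusted p = 1.98e-04). The other 6, which include *Hells* and *Pcna*, did not pass. Without WT replicate 3, *Lig1* was called higher as well, and with library totals *Cdca7* was called lower.

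Of 8 regulators of *de novo* and imprinted methylation, 6 were higher and 0 lower, compared with 21.0% and 20.8% of all tested genes (median log2 fold change 0.28). *Dppa2*, whose product keeps CpG-rich promoters of developmental genes free of methylation, rose from 68.7 ± 4.62 to 123 ± 2.63 CPM (log2 fold change 0.84, SE 0.057, edgeR adjusted p = 3.58e-07). *Trim28*, the corepressor that protects imprints together with ZFP57, rose from 1310 ± 106 to 1846 ± 79.7 CPM (log2 fold change 0.50, SE 0.057, edgeR adjusted p = 2.52e-05). *Prdm14*, a repressor of the *de novo* genes in naive cells, also rose (log2 fold change 0.46, edgeR adjusted p = 0.00213), as did *Dppa4*, *Nsd1* and *Setd2*. These 4 calls were lost against a fold change of 1.2, which left 2 of 8 higher (*Dppa2* and *Trim28*). *Zfp445* (log2 fold change -0.03) did not pass. *Zfp57* (log2 fold change 0.13, edgeR adjusted p = 0.0588) did not pass either, although its groups did not overlap and it was called higher under DESeq2, with no filter on low counts, with the hepatocyte covariate and without knockout replicate 1.

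Among 8 genes of the MBD and ZBTB families, most of which encode readers of methylated CpG, 2 were higher and 1 was lower (37.5% called), which is near the 41.7% of all tested genes and is not a result about this list. *Mbd3*, which encodes a NuRD subunit that does not itself favour methylated CpG, rose by a log2 fold change of 0.34 (edgeR adjusted p = 0.00149) and *Mbd1* by 0.21 (edgeR adjusted p = 0.0162), although the *Mbd1* call was lost without WT replicate 2 (0.0584), without knockout replicate 2 (0.0755) and with the hepatocyte covariate (0.0698). *Mbd4*, a thymine glycosylase whose activity overlaps that of TDG, fell from 38.0 ± 2.33 to 28.4 ± 1.04 CPM (log2 fold change -0.42, edgeR adjusted p = 1.71e-04). Of 9 partners of the TET enzymes and *Gadd45* genes, 3 were higher and 3 lower, compared with 21.0% and 20.8% of all tested genes. *Sall4*, a reader of 5-hydroxymethylcytosine in ESCs, rose from 171 ± 11.2 to 271 ± 14.0 CPM (log2 fold change 0.66, edgeR adjusted p = 2.78e-06). *Ogt*, whose product binds and glycosylates TET proteins, fell from 308 ± 32.4 to 196 ± 12.0 CPM (log2 fold change -0.65, edgeR adjusted p = 1.80e-05). Within the *Gadd45* family, *Gadd45g* rose (log2 fold change 0.51, edgeR adjusted p = 0.00422) whereas *Gadd45b* fell (-1.01, adjusted p = 4.05e-04) and *Gadd45a*, with overlapping groups, was called lower (-0.24, adjusted p = 0.0192). The *Gadd45a* call was lost without WT replicate 2, WT replicate 3, knockout replicate 2 or knockout replicate 3 and held in 10 of 15 alternative analyses.

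Of 16 genes of base excision repair, which completes demethylation after TDG, 8 were lower and 3 higher, compared with 20.8% and 21.0% of all tested genes (median log2 fold change -0.27). *Neil2*, a glycosylase that takes over the abasic site from TDG, fell from 17.8 ± 0.816 to 10.1 ± 1.27 CPM (log2 fold change -0.82, SE 0.095, edgeR adjusted p = 2.48e-05). *Polb*, the gap-filling polymerase gene, fell from 23.2 ± 3.22 to 17.7 ± 1.14 CPM (log2 fold change -0.39, edgeR adjusted p = 0.00506), but with the hepatocyte covariate it did not pass (-0.25, adjusted p = 0.0719). *Ogg1* and *Tdp1* were also lower, as was *Nthl1*, whose call was lost with the hepatocyte covariate. The lower calls of *Smug1*, *Neil1* and *Aptx* were less stable and held in 7, 9 and 10 of 15 alternative analyses, with those of *Smug1* and *Neil1* lost under DESeq2. The *Smug1* call needed WT replicates 2 and 3 and all 3 knockout libraries, that of *Neil1* WT replicates 1 and 3 and knockout replicates 1 and 2, and that of *Aptx* WT replicate 2 and knockout replicates 1 and 2. The abasic endonuclease gene *Apex1* (log2 fold change 0.25, edgeR adjusted p = 0.0112), *Lig3* (0.18, adjusted p = 0.0197) and *Xrcc1* were higher. The *Lig3* call held in 8 and the *Xrcc1* call in 9 of 15 alternative analyses, and 0 genes of the list were called higher without WT replicate 2 or without knockout replicate 2, and 1 without knockout replicate 3 or with the hepatocyte covariate. The number lower was 5 without knockout replicate 2 and 5 with the hepatocyte covariate. Against a fold change of 1.2 it was 1 (*Neil2*), with *Polb*, *Ogg1*, *Tdp1*, *Nthl1* and the others lost.

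The methyl donor cycle, which supplies S-adenosylmethionine, had 2 of 11 genes higher and 2 lower (36.4% called), again near the 41.7% of all tested genes and not a result about this list. *Mat2a*, which encodes the S-adenosylmethionine synthetase of proliferating cells, rose from 293 ± 19.0 to 459 ± 19.6 CPM (log2 fold change 0.65, SE 0.056, edgeR adjusted p = 2.25e-06). *Mtr*, methionine synthase, had a log2 fold change of 0.19 (edgeR adjusted p = 0.0165), and this call was lost without WT replicate 1 (0.0719), without WT replicate 2 (0.0619) and with the hepatocyte covariate (0.174). *Ahcyl1* fell by 0.33 on the log2 scale (edgeR adjusted p = 2.76e-04). *Gnmt*, a liver methyltransferase gene that consumes the donor, had 13.7, 8.97 and 6.33 CPM in WT ASCs and 3.63, 5.43 and 4.38 CPM in *Bdh2*-knockout ASCs. The WT libraries stood in the same order for *Gnmt* as for the summed hepatocyte transcripts, and the *Gnmt* log2 fold change went from -1.10 to -0.57 with the hepatocyte covariate (edgeR adjusted p = 0.00218 and 0.0186).

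Of 10 genes that set the supply of oxoglutarate and vitamin C to the TET enzymes, 1 was higher and 3 were lower, compared with 21.0% and 20.8% of all tested genes. *Slc23a1*, a vitamin C transporter gene, rose from 4.83 ± 0.101 to 10.7 ± 0.150 CPM (log2 fold change 1.15, SE 0.10, edgeR adjusted p = 2.46e-06). *Idh2*, the mitochondrial isocitrate dehydrogenase gene, fell from 126 ± 4.83 to 94.3 ± 4.38 CPM (log2 fold change -0.42, edgeR adjusted p = 6.07e-05). *D2hgdh*, whose product removes a TET inhibitor, the D form of 2-hydroxyglutarate, was also lower (log2 fold change -0.39, edgeR adjusted p = 0.00356). *Ogdh* was called higher as well without WT replicate 3, under DESeq2 and when low counts were not filtered.

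Germline genes whose promoters are repressed by DNA methylation in somatic and primed cells were read as a further list. Of 11 tested genes, 6 rose and 0 fell, compared with 21.0% and 20.8% of all tested genes, with a median log2 fold change of 0.47. *Slc25a31*, an ADP/ATP carrier gene of the testis, rose from 1.05 ± 0.227 to 3.56 ± 0.470 CPM (log2 fold change 1.74, SE 0.22, edgeR adjusted p = 4.80e-05). *Taf7l*, a germ cell paralog of a TFIID subunit, rose from 3.97 ± 0.403 to 10.1 ± 1.54 CPM (log2 fold change 1.35, SE 0.14, edgeR adjusted p = 9.12e-06). *Tex19.1*, a regulator of retrotransposons in pluripotent and germ cells, rose from 49.6 to 117 CPM (log2 fold change 1.23, edgeR adjusted p = 1.11e-08), and *Mael* and *Ddx4* were higher as well. *Sycp3* was also called higher (log2 fold change 0.47, edgeR adjusted p = 0.0367), but this call held in 6 of 15 alternative analyses and was lost under DESeq2, with the replicate block and without WT replicate 1, WT replicate 3, knockout replicate 1 or knockout replicate 2. *Dazl* (log2 fold change 0.16), *Sycp1* (-0.15) and *Stk31* (0.19) did not pass. Without WT replicate 3, *Sycp1* was called lower, and without knockout replicate 2, *Stk31* was called higher. DNA methylation itself was not measured in these libraries.

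**Figure D5:**
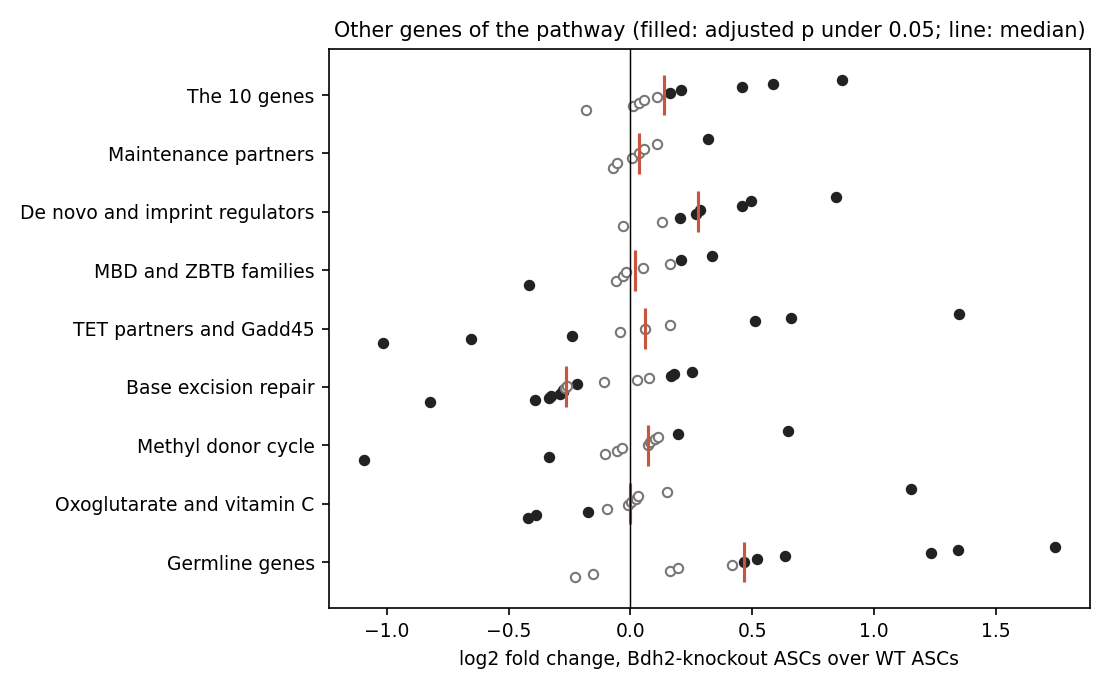
Log2 fold change of each tested gene in the group of 10 and in the 8 lists (horizontal axis); filled points had an adjusted p under 0.05 in edgeR and the red line is the median of the list. The medians lie at 0.28 for regulators of *de novo* and imprinted methylation, 0.47 for germline genes and -0.27 for base excision repair.

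The pattern of *Dnmt3l* over the 6 libraries was set against all other tested genes by the Pearson correlation of log2 CPM. The most alike were *Sh3glb1* (r = 0.9996), *Sfpq* (r = 0.9994) and *Srxn1* (r = 0.9993), and 188 genes had an r above 0.99. The 6 points fall into the same genotypes for each of these genes, and 41.7% of all genes differed between those genotypes, so these values are a description and have no test.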

How the data were processed

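RNA of 3 WT ASC and 3 *Bdh2*-knockout ASC libraries was sequenced by Illumina HiSeq. Clean reads were mapped by the authors to GRCm38 with HISAT2 2.0.5 and assigned to genes by FeatureCounts. The deposited table holds raw counts of 54715 genes, their lengths and positions. The annotation release, the use of strand and the treatment of multiple matches are not given in the sources used here, so reads of antisense neighbours (exon overlap of 6.83% for *Tdg* with *Glt8d2* and 2.24% for *Dnmt3l* with *Aire*) and of near-identical copies (18.9% of 50-base stretches of *Uhrf1*, 17.7% of *Dppa3*) could be misassigned. Positions and exons were taken from GENCODE M21, which holds 99.6% of the identifiers and gives identical ends for 98.3% of those.

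Samples were grouped by genotype from the labels. Counts were tested with edgeR 4.0.16 in R 4.3.3 (TMM, filterByExpr, glmQLFit, glmQLFTest) with a design of genotype alone, and p-values were adjusted by Benjamini-Hochberg over 16758 genes with a threshold of 0.05. CPM used the TMM library size. A single value of 3 against 3 libraries has a smallest exact permutation p of 0.1 (two-sided), which *Dnmt3b*, *Dnmt3l*, *Tet1* and *Tet3* reached. Floors cover counting error only. The functions were tested on simulated counts. No 2 libraries agreed within sampling noise. Alternatives were DESeq2 1.42.0 (the tool of the authors), limma-voom (limma 3.58.1), median-of-ratios factors, library totals, no filter, a mean count of at least 50, a replicate block, a hepatocyte score as covariate, a test against a fold change of 1.2, and each library left out. TPM was also computed. It scales all genes of a library alike, so it cannot change their order within a library. The order of the means over libraries was the same as with FPKM in both genotypes.

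The 10 genes, the lists and the alternatives were chosen with earlier results of these data known. Named genes are the 10, *Bdh2*, tested genes from *Tet2* to *Bdh2*, up to 2 genes per direction and list with the largest log2 fold change among those with an adjusted p under 0.05, a mean of at least 1 CPM and no overlap, and the 3 genes most alike to *Dnmt3l*. Other list genes, *Gm9855* and *Dnmt3c* were named after their values were seen. Results for some list genes are not reported by name here. Lists and plots used pandas 2.3.3 and matplotlib 3.10.9 in Python 3.11.15.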

Additional observations from a re-analysis of the deposited data

How the results depend on the processing

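*Dnmt3l* (log2 fold change 0.81 to 0.91), *Dnmt3b* (0.53 to 0.64) and *Tet3* (0.40 to 0.49) were called higher in all 15 alternatives, *Tet1* (0.15 to 0.24) in 14 and *Tet2* (0.11 to 0.23) in 6. Against a fold change of 1.2, 2457 genes were called in place of 6996 (1185 higher and 1272 lower), 3 of the 10 genes were higher, and 11 list genes were higher and 6 lower. With library totals, 1 of the 10 (*Dppa3*) was lower and *Tet2* was not called; the median of all genes moved to -0.071, and 38.0% of calls were higher in place of 50.3%. Leaving out 1 library gave 5613 to 7409 genes, 2928 to 3765 higher and 2624 to 3644 lower, with 4 to 5 of the 10 higher and 0 lower, and 19 to 27 list genes higher and 13 to 16 lower; a fit without 1 library rests on 2 libraries of that genotype. Without WT replicate 3 the 5 included *Dnmt1* and not *Tet2*. With the replicate block 6452 genes were called, and of the 10 genes the call of *Tet2* was lost (0.17, edgeR adjusted p = 0.0739) and no other changed. After the mean of each genotype was removed, same-numbered libraries correlated at -0.158, 0.0452 and 0.206. These values show no clear pairing by number, but so few libraries cannot exclude one. For genes that were not called, true differences anywhere inside the interval given were not excluded by 3 libraries a group.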
